A study of Homo sapiens with 18 samples.

Results

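The genes described here are 38 transcripts of the unfolded protein response and the ATF4 stress response, measured in THESC cells, an established line derived from human endometrial stroma and immortalised with telomerase. They were chosen by symbol from a fixed list and all 38 were among the 78724 genes of the deposited counts and among the 15558 with enough counts to test. By role, 20 belong to the secretory arm (chaperones, disulfide isomerases, and degradation factors of the endoplasmic reticulum), 3 are the stress sensors, and 15 belong to the ATF4 arm. The cells had been engineered with CRISPR guide RNAs into 3 lines, all kept in blasticidin: NT cells carried a non-targeting guide and are labelled WT, U1U2 cells carried guides of that name and are labelled PGRA/B-equivalent, and promoter cells carried a promoter guide and are labelled PGRB-dominant. After 24 h in medium with low serum, each line received either vehicle (0.01% ethanol) or 1 µM medroxyprogesterone acetate (MPA), a synthetic progestin, for 72 h. This gave 6 groups of 3 libraries, 18 in all and 1 batch by label, from column-purified RNA and a stranded poly(A) kit. Whether replicates came from separate cultures, or a line from 1 clone, is not stated in the labels; p-values therefore cover the spread among these libraries, which may be technical.

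The endoplasmic reticulum folds proteins bound for secretion, and 3 membrane sensors read how many remain unfolded. IRE1 (gene ERN1) splices the XBP1 message, ATF6 is cut to release a transcription factor, and PERK (gene EIF2AK3) phosphorylates eIF2 alpha, which lowers general translation and favours translation of ATF4. XBP1 and ATF6 raise chaperones and degradation factors, whereas ATF4 raises genes of amino acid synthesis, redox balance and cell death. Endometrial stromal cells become secretory when they decidualise under progestins, and both arms are known to act in secretory cells. Gene-level counts show neither XBP1 splicing nor ATF4 translation.

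The 2 arms are known to be read through different promoter elements, so promoter windows are shown for 5 genes that the results return to. The windows are from RefSeq on GRCh38.p14 and run from 250 bases before to 50 bases after a start; 35 of the 38 genes had an entry, PDIA3, PSPH and SHMT2 not. Each stretch reads 5′ to 3′ on the gene's strand, and capitals mark a searched motif.
HSPA5: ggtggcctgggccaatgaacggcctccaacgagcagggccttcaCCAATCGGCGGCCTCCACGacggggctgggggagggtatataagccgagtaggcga
XBP1: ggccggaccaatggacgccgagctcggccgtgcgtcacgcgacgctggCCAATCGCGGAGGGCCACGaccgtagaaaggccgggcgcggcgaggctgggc
HERPUD1: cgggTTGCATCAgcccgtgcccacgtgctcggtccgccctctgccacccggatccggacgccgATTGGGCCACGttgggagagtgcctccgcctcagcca
CHAC1: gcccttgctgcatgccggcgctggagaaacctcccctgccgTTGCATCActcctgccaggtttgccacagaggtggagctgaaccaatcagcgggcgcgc
DDIT4: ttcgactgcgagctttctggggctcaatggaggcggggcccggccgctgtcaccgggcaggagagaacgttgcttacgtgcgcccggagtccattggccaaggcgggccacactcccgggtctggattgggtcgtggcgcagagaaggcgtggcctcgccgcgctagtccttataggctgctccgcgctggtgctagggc
The HSPA5 stretch is chr9:125241354-125241453 on the minus strand and holds an ER stress element at -66 to -48, where -1 is the base just before the start. The XBP1 stretch is chr22:28800570-28800669, also minus, with the same element at -52 to -34. HERPUD1 (chr16:56931962-56932061, plus) holds an ER stress element II at -117 to -107 and, on the opposite strand, a CEBP-ATF response element at -176 to -169. CHAC1 (chr15:40953221-40953320, plus) holds a CEBP-ATF response element on the opposite strand at -209 to -202. The DDIT4 stretch (chr10:72273724-72273923, plus) holds none of the 4 motifs searched.

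The letters searched on both strands were CCAAT, a gap of 9 bases and CCACG for the ER stress element, ATTGG, a gap of 1 base and CCACG for element II, TGACGTGG for the unfolded protein response element and TGATGNAA for the CEBP-ATF response element. The ER stress element was in 7 of the 19 secretory genes with a window (CALR, CANX, CRELD2, HSP90B1, HSPA5, PDIA6 and XBP1) and in 0 of 13 genes of the ATF4 arm. Some genes had more than 1 window. By window, it was in 9 of 25 and 0 of 21, beside 27 of 35116 windows of all genes (0.0769%), these genes included. Element II was in HERPUD1, HYOU1 and SDF2L1 (0.0541% of all windows), and the unfolded protein response element in HYOU1, where it overlaps 1 of that gene's 2 copies of element II (0.729%). The CEBP-ATF response element was in 3 of 13 genes of the ATF4 arm (ASNS, ATF3 and CHAC1) and in 1 of 19 secretory genes (HERPUD1). By window, it was in 3 of 21 and 1 of 25, beside 3.62% of all windows. None of the 4 was in the windows of the 3 sensors. A match is a description of these letters, not of a bound site.

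The libraries held 11.9 to 33.4 M counts. PGR is the progesterone receptor gene that the line labels refer to. In vehicle it averaged 140 CPM (counts scaled to a common library size) in NT, 596 in U1U2 and 434 in promoter cells. Under MPA its means were lower in each line, at 84.5, 260 and 282 CPM. FKBP5, a progestin-induced gene, rose with MPA from 16.1 to 119.9, from 16.4 to 180.1 and from 20.8 to 348.1 CPM. Stromal markers were abundant (VIM 1162 to 1926 CPM) but did not move alike under MPA. In each line the means of VIM, DCN and LUM were lower under MPA and those of COL1A1, COL1A2 and COL3A1 higher. PDGFRB, THY1 and NT5E differed in direction between lines. LUM went from 1192 to 605 CPM in NT, 894 to 510 in U1U2 and 756 to 429 in promoter cells. COL1A1 went from 2593 to 2822, 1952 to 3491 and 1996 to 3668 CPM. Markers of other cell types were partly present. Of 5 endothelial markers, PECAM1, CDH5, VWF and KDR had at most 11 counts in a library, but TEK had 673 to 2675. Of 5 leukocyte markers, CD14, CD68 and ITGAM had at most 5 and CD3E had 0, but PTPRC had 33 to 143. Of 6 epithelial markers, CDH1 and KRT7 had at most 10 counts and EPCAM 3 to 34, while KRT18 (105 to 460), KRT19 (142 to 1134) and MUC1 (48 to 166) were measured. The summed leukocyte markers, nearly all PTPRC, lay lower under MPA, at 1.87 to 2.41 against 4.35 to 5.57 CPM in NT, 1.59 to 1.98 against 3.59 to 4.24 in U1U2 and 1.88 to 2.36 against 4.06 to 4.64 in promoter cells. The summed endothelial markers, nearly all TEK, were also lower, at 44.1 to 46.4 against 55.2 to 59.0, 45.4 to 50.6 against 66.8 to 74.6 and 42.3 to 43.4 against 72.6 to 74.9 CPM. The epithelial sums overlapped in NT and U1U2 cells and lay at 23.5 to 31.3 against 35.7 to 49.3 CPM in promoter cells. The part of these shifts in the MPA results was not tested. The decidual genes PRL and IGFBP1 had at most 7 counts in any library. Several libraries stood apart from their replicates. NT vehicle replicate 1 had the fewest counts, the highest mitochondrial share (3.02%, with a range of 1.63% to 3.02%) and the highest value of its group for 23 of 37 genes. NT MPA replicate 3, U1U2 MPA replicate 1 and promoter vehicle replicate 2 had TMM normalisation factors under 0.95, while the highest was 1.08. Values without these libraries stand beside the results that they move. In bulk RNA, fewer cells that express a gene and less RNA per cell cannot be told apart.

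Levels of the 38 genes spanned a wide range. Per kilobase of exon in NT vehicle cells, the lectin chaperone CANX stood at 312 CPM, the Hsp70 chaperone HSPA5 at 273.9, the Hsp90 chaperone HSP90B1 at 230.5 and the disulfide isomerase PDIA3 at 230.5. In the ATF4 arm the serine synthesis enzyme PSAT1 (196) and ATF4 itself (118) were highest on the same scale. ATF6 stood at 26.1, EIF2AK3 at 8.08 and ERN1 at 2.50. The lowest were VLDLR, a lipoprotein receptor (0.807), and SDF2L1, a chaperone cofactor (0.386). SDF2L1 had 158 counts over all 18 libraries, so it was tested but left out of means over an arm.

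MPA raised few of these genes, and the calls were of genes that rose. In NT cells 1 of 38 was called (DDIT4), in U1U2 cells 4 (CHAC1, DDIT4, DNAJB9 and ERN1) and in promoter cells 3 (ATF3, DDIT4 and ERN1), and 0 fell in any line. A call is an adjusted p under 0.05 in edgeR's quasi-likelihood test. In either direction, the same rule called 5.87% of all tested genes in NT, 11.6% in U1U2 and 15.0% in promoter cells. Of all 15558 tested genes, 376, 840 and 1029 were called higher and 538, 964 and 1304 lower. The shares of the stress genes (1, 4 and 3 of 38) were near or under the background of both directions. Beside the genes called higher alone they were near or above it. No test was made of these shares. For 33 of the 38 genes there was no call in any of the 12 comparisons made. At an unadjusted p under 0.05, 8 of the 38 passed in NT, 8 in U1U2 and 11 in promoter cells, and all were higher. In either direction, 16.9%, 23.2% and 26.7% of all genes passed that threshold. Those that were higher numbered 1242, 1817 and 1918 of 15558, a smaller share than among the 38 in each line.

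**Figure D1:**
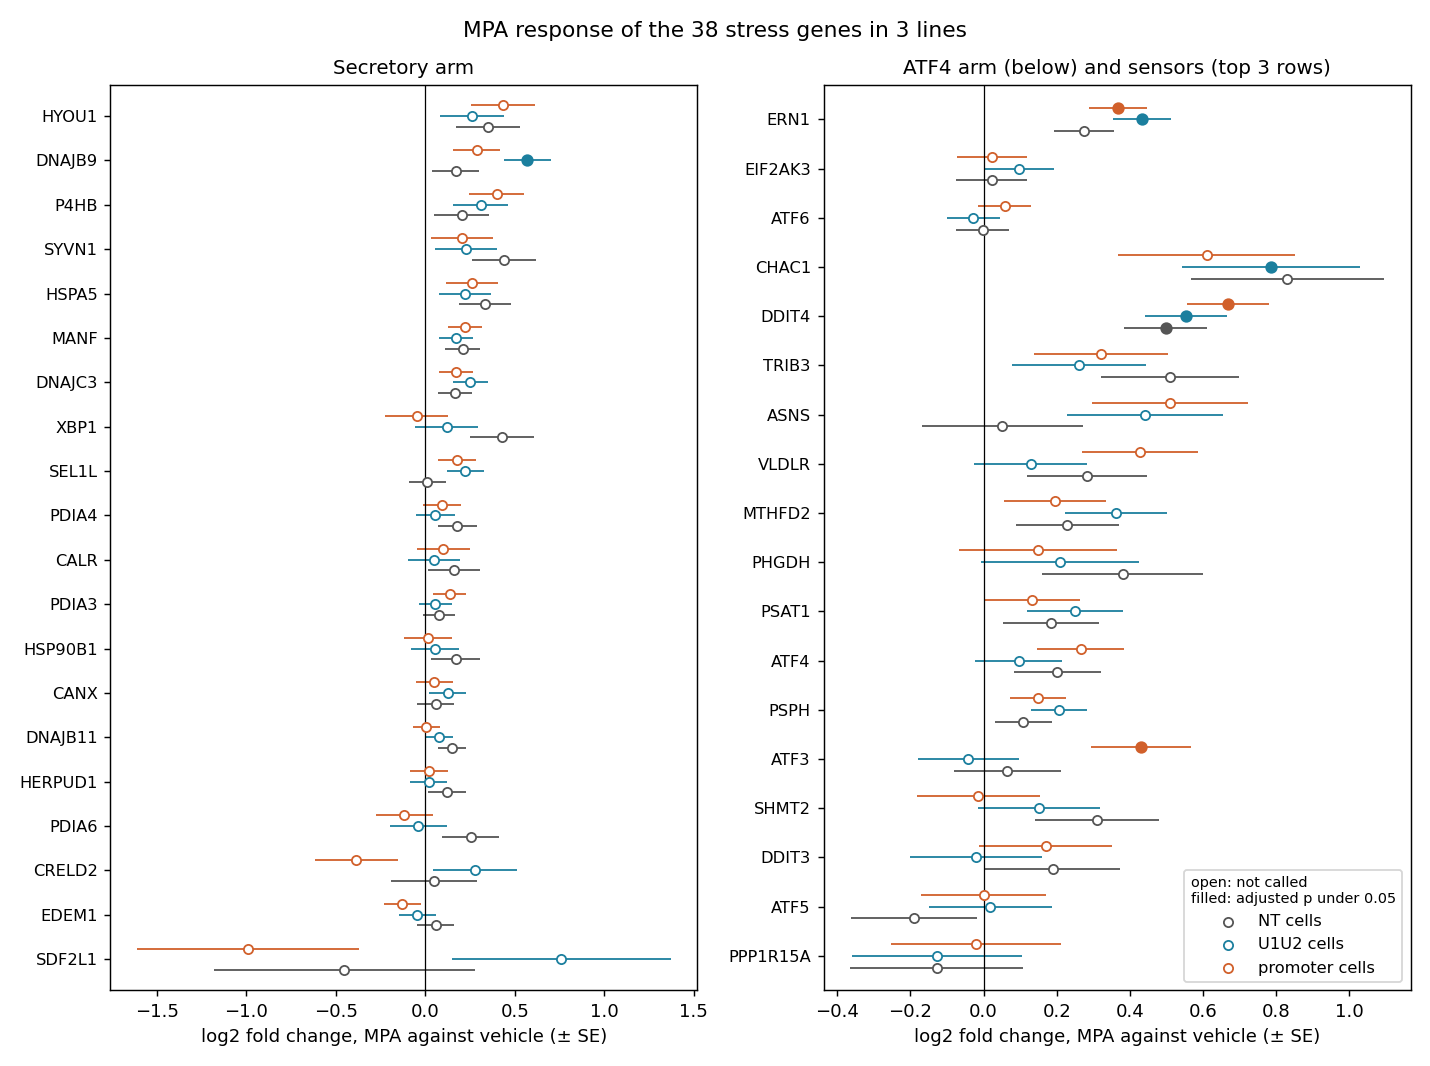
The log2 fold change of MPA against vehicle (x axis, ± SE) is shown for each of the 38 genes (rows) in NT, U1U2 and promoter cells, with filled points for an adjusted p under 0.05. Most estimates lie to the right of 0, the filled points are DDIT4, ERN1, DNAJB9, CHAC1 and ATF3, and SDF2L1 has the widest error.

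Small positive estimates were common in both arms. Estimates were above 0 for 34 of 38 genes in NT, 32 in U1U2 and 31 in promoter cells, beside 53.8%, 54.0% and 49.5% of all tested genes. For 27 they were above 0 in all 3 lines, and the matching share of all genes was not computed. Many of these genes shifted together within a library, so their signs are not independent. The median log2 fold change of the secretory arm was 0.17, 0.15 and 0.10 in NT, U1U2 and promoter cells, and that of the ATF4 arm 0.20, 0.21 and 0.20. The median of all tested genes was 0.02, 0.03 and -0.0034. Every MPA library was above every vehicle library for 9 genes in NT cells (9.49% of all genes), 8 in U1U2 cells (11.5%) and 14 in promoter cells (17.6%). Among the 38, the reverse order held for 0 in each line, beside 9.78%, 12.3% and 18.1% of all genes. The 95% interval of the change lay within 2-fold in either direction for 36 of 38 genes in each line.

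DDIT4, an inhibitor of mTORC1 signalling in the ATF4 arm (chr10:72273920-72276036, plus strand, GENCODE 29 on GRCh38), was the member called in all 3 lines. Its vehicle libraries read 58.5, 47.6 and 47.7 CPM in NT, 47.0, 57.3 and 50.6 in U1U2 and 55.0, 53.5 and 46.9 in promoter cells. Under MPA they read 64.9, 75.7 and 76.2 in NT, 73.3, 69.1 and 85.0 in U1U2 and 90.0, 76.7 and 80.3 in promoter cells. No MPA library overlapped the vehicle libraries of its line, and the closest pair was NT vehicle replicate 1 and NT MPA replicate 1. The log2 fold change was 0.50 ± 0.11 (SE; edgeR adjusted p = 0.0103) in NT, 0.55 ± 0.11 (adjusted p = 0.00237) in U1U2 and 0.67 ± 0.11 (adjusted p = 0.00032) in promoter cells, with 3 libraries per group. The NT call was lost without the 3 libraries of low TMM factor (adjusted p = 0.0847, log2 fold change 0.45) and when NT vehicle replicate 2, NT vehicle replicate 3 or NT MPA replicate 2 was left out (adjusted p 0.0541 to 0.0772). An antisense gene, DDIT4-AS1, covers 41.2% of the DDIT4 exons, and whether the counting used strand is not given in the sources used here.

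CHAC1, which degrades glutathione (chr15:40952962-40956519, plus; the RefSeq start of the printed window lies inside this GENCODE gene), had the largest estimates of the ATF4 arm in NT and U1U2 cells at low counts. Vehicle libraries read 5.27, 2.86 and 2.29 CPM in NT, 3.69, 4.56 and 4.03 in U1U2 and 5.25, 5.21 and 4.73 in promoter cells. MPA libraries read 4.33, 7.05 and 6.74 in NT, 7.12, 5.57 and 8.49 in U1U2 and 9.42, 6.89 and 6.82 in promoter cells. The groups overlapped in NT cells and were apart in the other lines; NT vehicle replicate 1 exceeded NT MPA replicate 1. The log2 fold change was 0.83 ± 0.26 (edgeR adjusted p = 0.0810) in NT, 0.79 ± 0.24 (0.0445, called) in U1U2 and 0.61 ± 0.24 (0.105) in promoter cells. The U1U2 call was lost when any U1U2 library other than MPA replicate 2 was left out (adjusted p 0.0755 to 0.164), and DESeq2 also called the NT change.

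ATF3, a repressor that ATF4 induces (chr1:212565334-212620777, plus), was called in promoter cells, with vehicle libraries of 4.34, 4.71 and 4.68 CPM and MPA libraries of 6.59, 5.44 and 6.46. In NT cells it read 4.60, 3.53 and 4.45 in vehicle and 4.37, 4.24 and 4.47 under MPA, and in U1U2 cells 5.30, 5.87 and 4.54 against 5.15, 4.89 and 5.22. The groups were apart in promoter cells and overlapped in the others. Its promoter estimate was 0.43 ± 0.14 (edgeR adjusted p = 0.0411), beside 0.07 ± 0.15 in NT and -0.04 ± 0.14 in U1U2 cells. The test of the difference gave 0.37 ± 0.20 for promoter minus NT (adjusted p = 0.388) and 0.47 ± 0.19 for promoter minus U1U2 (adjusted p = 0.857), so a difference between lines was not called. The promoter call was lost when any library of that line other than MPA replicate 2 was left out (adjusted p 0.0667 to 0.156), and without a filter on low counts (adjusted p = 0.330). ATF3 and DNAJB9 are shown in full because they were called; they were picked for this after their values were seen.

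ATF4, the transcription factor of the arm, was not called. Its NT vehicle libraries read 364, 266 and 259 CPM and its NT MPA libraries 307, 354 and 361. In U1U2 cells it read 285, 327 and 285 in vehicle and 307, 293 and 359 under MPA. In promoter cells it read 298, 284 and 269 in vehicle and 362, 327 and 334 under MPA, where the groups did not overlap. Its estimates were 0.20 ± 0.12, 0.10 ± 0.12 and 0.27 ± 0.12 in NT, U1U2 and promoter cells (edgeR adjusted p = 0.425, 0.687 and 0.158). NT vehicle replicate 1 was the highest of the 6 NT libraries. Without it 5 members were called in NT cells (ATF4, CHAC1, DDIT4, HYOU1 and TRIB3) where 956 of 15861 genes were called in all.

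DDIT3, the CHOP factor linked to stress-induced death, read 27.2, 15.7 and 17.5 CPM in NT vehicle and 19.4, 25.7 and 23.1 in NT MPA libraries. U1U2 cells gave 19.12, 22.21 and 18.99 in vehicle and 16.02, 17.97 and 25.36 under MPA. Promoter cells gave 18.4, 18.3 and 18.8 in vehicle and 22.1, 20.2 and 20.1 under MPA. The groups were apart in promoter cells and overlapped in NT and U1U2 cells. Its log2 fold changes were 0.19 ± 0.18, -0.02 ± 0.18 and 0.17 ± 0.18, none called. Exons of genes on the opposite strand, chiefly MARS, cover 31.6% of the DDIT3 exons.

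TRIB3, a pseudokinase that dampens ATF4 output, had estimates of 0.51, 0.26 and 0.32 in NT, U1U2 and promoter cells, none called. The enzymes of serine and one-carbon metabolism (PHGDH, PSAT1, PSPH, SHMT2 and MTHFD2) had estimates between -0.01 and 0.38, none called, although all 3 MPA libraries were above all 3 vehicle libraries for PSPH in each line. ASNS, asparagine synthetase, had 0.05, 0.44 and 0.51, none called, and shares 44.6% of its exons with another gene on the same strand. PPP1R15A, which brings the phosphatase to eIF2 alpha, had -0.13, -0.13 and -0.02, and ATF5, a related factor, was at or below 0.02 in each line. VLDLR had 0.28, 0.13 and 0.43, and its promoter value was called without promoter vehicle replicate 2.

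**Figure D2:**
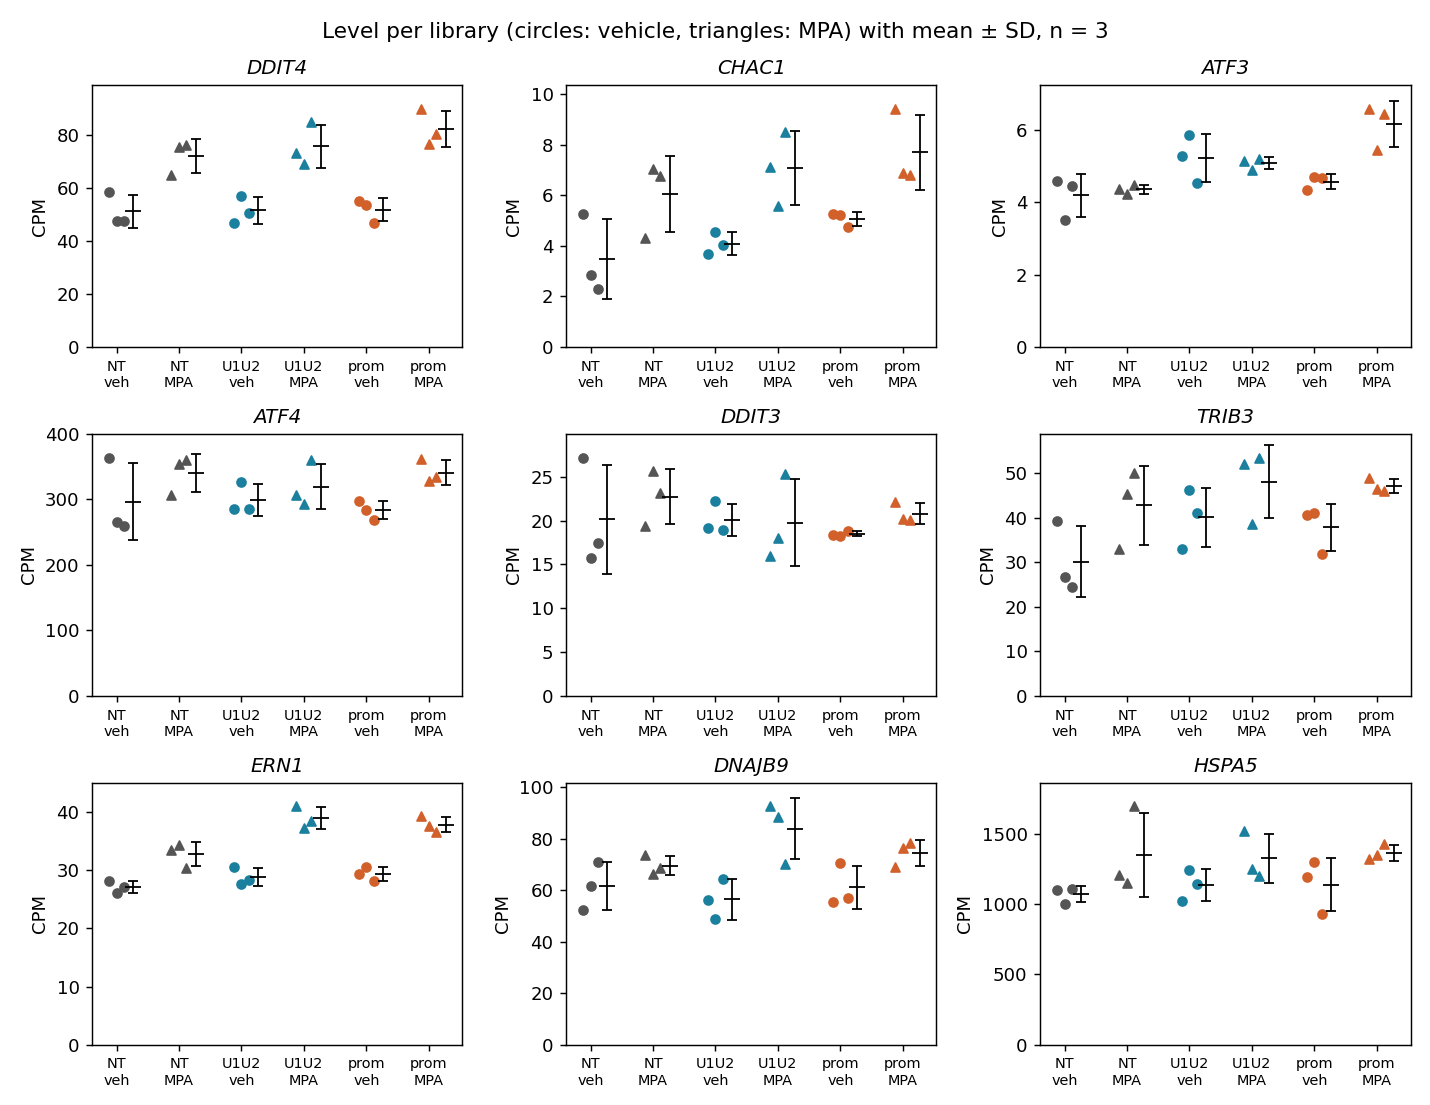
CPM (y axis, from 0) in each library of the 6 groups is shown for 9 genes, with circles for vehicle, triangles for MPA and the mean ± SD (n = 3) beside them. DDIT4 and ERN1 triangles sit above the circles of their line in all 3 lines, while NT vehicle replicate 1 is the highest of the NT vehicle points for CHAC1, ATF4, DDIT3 and TRIB3.

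Of the sensors, ERN1 rose and the others were not called. ERN1 (chr17:64039142-64130819, minus) read 28.1, 26.1 and 27.2 CPM in NT vehicle and 33.5, 34.3 and 30.4 in NT MPA libraries. In U1U2 cells it read 30.5, 27.6 and 28.3 against 41.0, 37.3 and 38.5, and in promoter cells 29.3, 30.6 and 28.1 against 39.3, 37.6 and 36.6. The MPA and vehicle libraries did not overlap in any line. Its log2 fold change was 0.43 ± 0.08 (edgeR adjusted p = 0.000988) in U1U2, 0.37 ± 0.08 (adjusted p = 0.00326) in promoter and 0.27 ± 0.08 (adjusted p = 0.0557) in NT cells, and DESeq2 called all 3. The difference between lines was not called (U1U2 minus NT 0.16 ± 0.11, adjusted p = 0.616). The promoter call was lost without a filter on low counts (adjusted p = 0.101).

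ATF6 read 186, 219 and 214 CPM in NT vehicle and 212, 203 and 203 in NT MPA libraries. It read 208, 206 and 206 against 202, 210 and 196 in U1U2 cells, and 196, 220 and 206 against 209, 218 and 220 in promoter cells. The groups overlapped in every line, and ATF6 had the smallest spread among replicates of 37 genes (SD 0.07 on the log2 scale, median 0.18). EIF2AK3 read 39.9, 44.7 and 47.1 against 45.9, 39.5 and 48.8 in NT, 39.2, 44.6 and 45.8 against 50.2, 45.4 and 43.4 in U1U2, and 47.1, 45.8 and 42.3 against 45.6, 47.3 and 44.4 in promoter cells. Those groups overlapped too, and its estimates were 0.02, 0.10 and 0.02, each ± 0.10.

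In the secretory arm 1 of 20 genes was called, in U1U2 cells. This was DNAJB9, a cochaperone of HSPA5 that restrains IRE1 (chr7:108569568-108574850, plus). Its U1U2 libraries read 56.1, 48.7 and 64.5 CPM in vehicle and 92.5, 88.6 and 70.4 under MPA, without overlap. It read 52.5, 61.6 and 70.8 against 73.6, 66.3 and 68.5 in NT, and 55.6, 70.7 and 57.1 against 68.8, 76.5 and 78.3 in promoter cells, both with overlap. Its log2 fold change was 0.57 ± 0.13 (edgeR adjusted p = 0.00665) in U1U2, 0.17 ± 0.13 in NT and 0.29 ± 0.13 in promoter cells. The difference U1U2 minus NT, 0.40 ± 0.19, was not called (adjusted p = 0.498), and the U1U2 call was lost without U1U2 vehicle replicate 2 (adjusted p = 0.0587).

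HSPA5, the central chaperone of the response, was not called. It read 1103, 1003 and 1105 CPM in NT vehicle and 1204, 1153 and 1695 in NT MPA libraries. In U1U2 cells it read 1019, 1243 and 1146 in vehicle and 1522, 1253 and 1201 under MPA. In promoter cells it read 1194, 1299 and 927 in vehicle and 1318, 1350 and 1430 under MPA. The groups were apart in NT and promoter cells and overlapped in U1U2 cells, and the highest value under MPA in NT and in U1U2 cells was in a library of low TMM factor. Its estimates were 0.34 ± 0.15, 0.22 ± 0.15 and 0.26 ± 0.15 (edgeR adjusted p = 0.245, 0.394 and 0.269). Without the 3 libraries of low TMM factor they were 0.13 ± 0.11, 0.09 ± 0.11 and 0.35 ± 0.11, and none was called (adjusted p = 0.739, 0.645 and 0.0580).

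XBP1, whose spliced form drives secretory genes, read 159, 153 and 148 CPM in NT vehicle and 177, 180 and 266 in NT MPA libraries. It read 158, 215 and 218 against 268, 185 and 189 in U1U2, and 217, 231 and 154 against 193, 198 and 191 in promoter cells. The groups were apart in NT cells and overlapped in the others, and again NT MPA replicate 3 and U1U2 MPA replicate 1 were high. Its log2 fold changes were 0.43 ± 0.18, 0.12 ± 0.18 and -0.05 ± 0.18, none called, and the difference promoter minus NT was -0.48 ± 0.25 (edgeR adjusted p = 0.371). Without the 3 libraries of low TMM factor the changes of XBP1 were 0.21 ± 0.14, -0.10 ± 0.14 and 0.05 ± 0.14, none called.

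The other secretory genes were not called in any line. Among chaperones and their partners, HYOU1, an Hsp110-type chaperone, had estimates of 0.35, 0.26 and 0.44 in NT, U1U2 and promoter cells and MANF, a secreted stress factor, 0.21, 0.17 and 0.22. HSP90B1, CALR and CANX, which fold glycoproteins and other cargo, had estimates between 0.02 and 0.17. DNAJC3 and DNAJB11, cochaperones of HSPA5, had estimates between 0.01 and 0.25. Of the disulfide isomerases, P4HB had 0.20, 0.31 and 0.40, PDIA3 and PDIA4 between 0.06 and 0.18, and PDIA6 0.25, -0.04 and -0.12. The degradation factors SEL1L, HERPUD1, SYVN1 and EDEM1 had estimates between -0.13 and 0.44. CRELD2, a stress-induced secreted protein, had 0.05, 0.28 and -0.38, and SDF2L1 had -0.45 ± 0.73, 0.76 ± 0.61 and -0.99 ± 0.62, too few counts for a narrower statement.

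Correcting each library for the GC content and length of genes, an alternative added after the data were seen, moved these counts. It called 4 members in NT cells (CHAC1, DDIT4, DNAJC3 and SYVN1; 8.82% of all genes), 7 in U1U2 cells (17.7%) and 10 in promoter cells (ATF3, ATF4, CHAC1, DDIT4, DNAJB9, ERN1, HYOU1, MANF, P4HB and PSPH; 21.4%), all higher. P4HB then stood at 0.43 ± 0.07 and HYOU1 at 0.46 ± 0.10 in promoter cells. The shares of all genes given for these alternatives count calls in either direction. Limited to the libraries with a TMM factor of 0.95 or more, promoter cells gave 5 calls (DDIT4, ERN1, MTHFD2, SEL1L and VLDLR; 12.5% of all genes), U1U2 cells 3 (11.4%) and NT cells 0 (4.17%). DESeq2 called 3 in NT cells (CHAC1, DDIT4 and ERN1; 6.81% of 15246 genes).

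The arms were set side by side as the mean log2 level of their genes in each library, relative to the mean of NT vehicle. For the secretory arm (19 genes) vehicle libraries lay between -0.07 and 0.11 in NT, -0.01 and 0.13 in U1U2, and 0.02 and 0.19 in promoter cells. MPA libraries lay between 0.10 and 0.30, 0.16 and 0.25, and 0.20 and 0.26. For the ATF4 arm (15 genes) vehicle libraries lay between -0.11 and 0.20, 0.03 and 0.18, and 0.02 and 0.12, and MPA libraries between 0.11 and 0.32, 0.17 and 0.46, and 0.30 and 0.45. For the secretory arm, libraries of the 2 treatments were apart in U1U2 as well as promoter cells; for the ATF4 arm they were apart in promoter cells. The overlap in NT cells came from NT vehicle replicate 1, at 0.11 for the secretory and 0.20 for the ATF4 arm: the other NT vehicle libraries, at -0.07 and -0.04 for the secretory and -0.09 and -0.11 for the ATF4 arm, lay below every NT MPA library. In promoter cells the secretory mean minus the ATF4 mean lay between 0.00058 and 0.08 in vehicle and between -0.19 and -0.07 under MPA. In NT cells that difference lay between -0.09 and 0.07 in vehicle and -0.15 and 0.02 under MPA, and in U1U2 cells between -0.06 and -0.02 against -0.20 and -0.01, both with overlap. No test was made of these means, and they were taken without the GC and length offsets. GC content ran from 37.8% (DNAJB11) to 58.4% (P4HB) in these secretory genes. In the ATF4 arm it ran from 41.4% (MTHFD2) to 62.6% (CHAC1). The part of GC content in the difference of the arms was not tested. Promoter vehicle replicate 2, of low TMM factor, had a difference of 0.05, inside the range of its group.

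**Figure D3:**
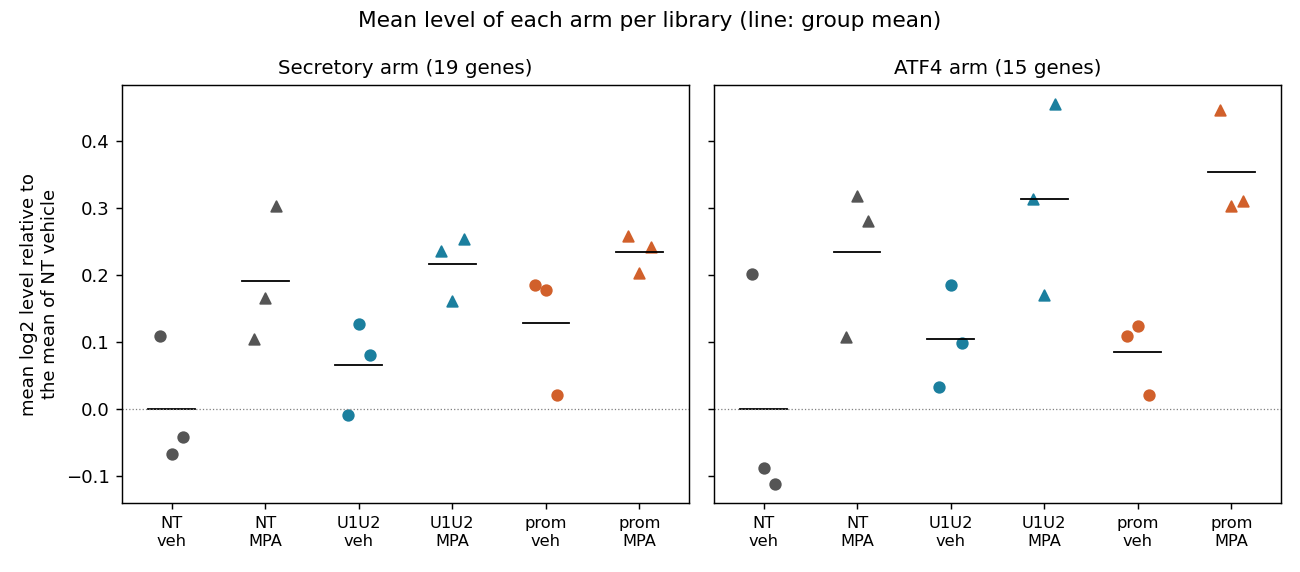
The mean log2 level of the secretory arm (left, 19 genes) and the ATF4 arm (right, 15 genes) relative to the mean of NT vehicle (y axis) is shown per library, with circles for vehicle, triangles for MPA and a line at each group's mean. The ATF4 triangles of promoter cells, 0.30 to 0.45, lie above the promoter circles, 0.02 to 0.12, and NT vehicle replicate 1 lies above the other NT circles in both panels.

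Within a library, many of these genes deviated from their group's mean in the same direction. The SD among replicates had a median of 0.22 on the log2 scale in the ATF4 arm (highest CHAC1, 0.34) and 0.18 in the secretory arm (highest CRELD2, 0.32). NT vehicle replicate 1 read 123 CPM for HYOU1, where its partners read 80.4 and 78.0, and was high for P4HB, CRELD2, DDIT3, TRIB3 and ATF4 as well. The part of depth, mitochondrial share and TMM factor in these shifts was not tested.

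**Figure D4:**
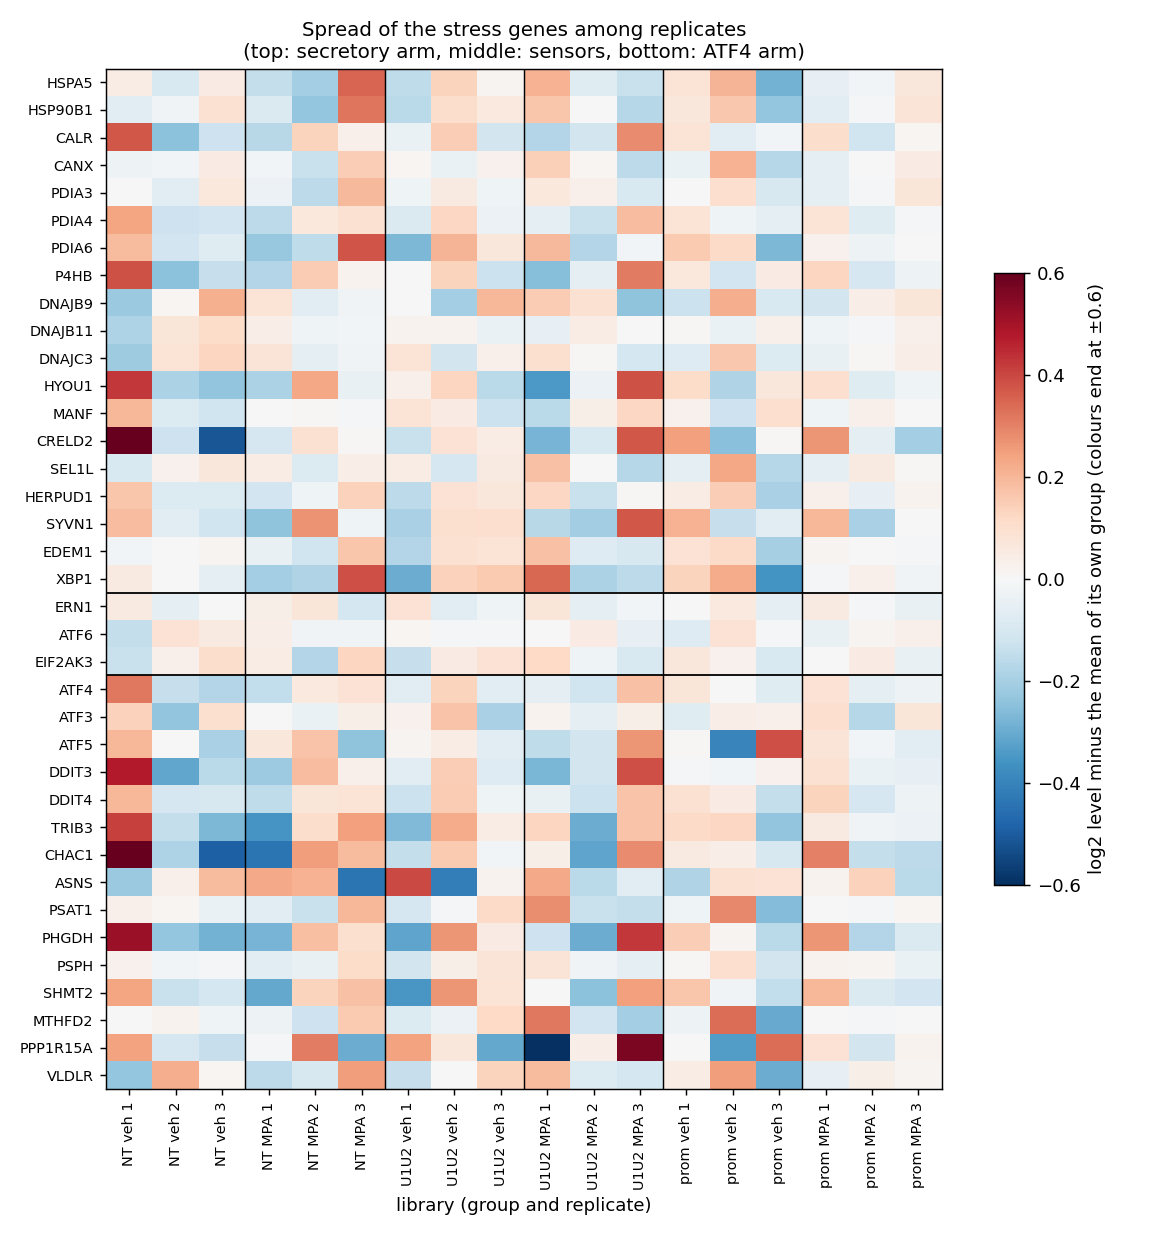
Colour gives each library's log2 level minus the mean of its own group for 37 genes (rows, by arm) in 18 libraries (columns, by group), with the scale ending at 0.6 in either direction. NT vehicle replicate 1 is red for 23 genes that it leads, many of them in the ATF4 arm, and NT MPA replicate 3 and U1U2 MPA replicate 1 are red for HSPA5 and XBP1.

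Between lines no stress gene was called by edgeR, in vehicle or under MPA. In vehicle, 0 of 38 were called for U1U2 against NT (1.12% of all genes), promoter against NT (6.65%) and promoter against U1U2 (0.784%), while 4 (16.1%), 3 (21.2%) and 2 (8.61%) had an unadjusted p under 0.05. Under MPA, 0 were called in the same order (1.70%, 4.12% and 0.328%), with 1 (8.95%), 2 (14.0%) and 0 (4.24%) at the unadjusted threshold. DESeq2 called 0 in each of these except promoter against NT under MPA, where it called ATF3 (4.76% of 16025 genes). By edgeR ATF3 stood at 0.50 ± 0.14 there (adjusted p = 0.0515). The estimates with the largest sizes in promoter against NT vehicle were CHAC1 at 0.58 ± 0.26 and ASNS at -0.42 ± 0.22, neither called. EDEM1, a lectin that routes misfolded glycoproteins to degradation, had 0.30 ± 0.10 (adjusted p = 0.101). It was called without promoter vehicle replicate 3, as was CHAC1 without NT vehicle replicate 1. Estimates were above 0 for 26, 30 and 28 of 38 genes in vehicle, in the order given above, beside 49.8%, 49.9% and 51.7% of all genes. Under MPA they were above 0 for 26, 27 and 17, beside 50.8%, 47.0% and 43.1%. As for MPA, these signs are not independent. The comparisons with NT share the NT libraries. The 95% interval lay within 2-fold for 36 or 37 of the 38 genes in each of these 6 comparisons.

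The size of the MPA response was not called different between lines for any of the 38 genes by edgeR or DESeq2. For U1U2 minus NT 0 were called (0.206% of all genes) and 1 had an unadjusted p under 0.05 (9.94%). For promoter minus NT the counts were 0 (1.54%) and 0 (14.7%), and for promoter minus U1U2 they were 0 (0.0129%) and 1 (5.15%).

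**Figure D5:**
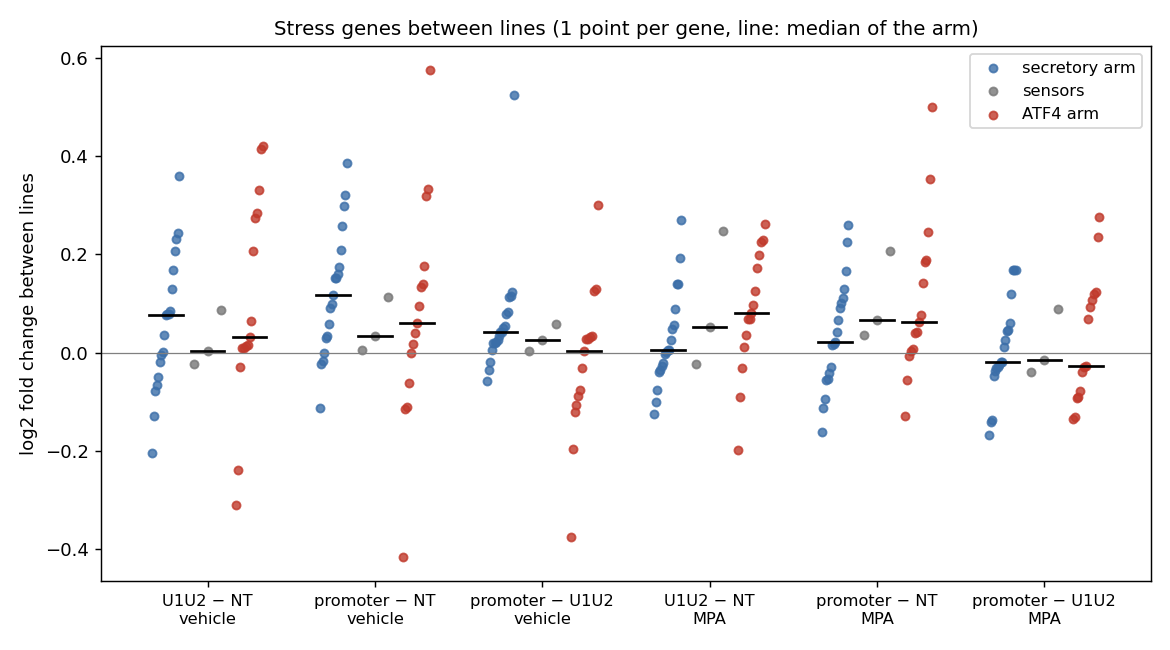
The log2 fold change between lines (y axis) is shown for 37 genes in 6 comparisons, coloured by arm, with a line at each arm's median. The points lie on both sides of 0 in each comparison, not always evenly, and none was called.

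Other genes of these pathways were taken from 10 lists of 230 symbols, 223 of them tested. The lists were chosen with earlier results of these data known, so a share of a list called cannot show an enrichment. MPA raised 7 and lowered 2 in NT cells, raised 21 and lowered 4 in U1U2 cells, and raised 22 and lowered 7 in promoter cells. These are 4.04%, 11.2% and 13.0% of the 223, beside 5.87%, 11.6% and 15.0% of all tested genes, so they were near or under the background. In the list of ATF4-linked metabolic enzymes (17 tested), 1 rose in NT, 4 rose and 1 fell in U1U2, and 5 rose and 2 fell in promoter cells (5.88%, 29.4% and 41.2% of the list called, beside 5.87%, 11.6% and 15.0% of all genes). CTH, which makes cysteine, rose by 0.59 ± 0.15, 1.09 ± 0.15 and 1.34 ± 0.15 in NT, U1U2 and promoter cells, from 5.72 to 8.64, 5.92 to 12.6 and 5.67 to 14.4 CPM. ALDH1L2, a mitochondrial folate enzyme, rose by 0.37 ± 0.08 in U1U2 and 0.66 ± 0.08 in promoter cells, and GPT2, a mitochondrial transaminase, by 0.53 ± 0.09 in both. MTHFD1L, another mitochondrial folate enzyme, fell by 0.48 in U1U2 and in promoter cells. Of 21 genes for tRNA synthetases and tRNA export, classical ATF4 targets, edgeR and DESeq2 called 0 in each line. At an unadjusted p under 0.05, 9 in NT, 2 in U1U2 and 2 in promoter cells were higher and 0 lower. In either direction, 16.9%, 23.2% and 26.7% of all genes passed that threshold. The list's median log2 fold change was 0.24, 0.10 and 0.11.

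Among 25 regulators and targets linked to ATF4, 3 rose in each line, namely TSC22D3 (a leucine zipper protein that steroids induce), TXNIP (an inhibitor of thioredoxin) and NDRG1 (a stress-responsive gene), and 3 fell in promoter cells (INHBE, MAP1LC3B and SQSTM1). These calls are 12%, 12% and 24% of the list in NT, U1U2 and promoter cells, beside 5.87%, 11.6% and 15.0% of all genes. TSC22D3 rose by 1.74 ± 0.22, 1.47 ± 0.21 and 1.47 ± 0.21. By edgeR, of 25 further folding factors 0, 2 and 4 rose in NT, U1U2 and promoter cells, with DNAJC1 and FKBP14 in both of the latter and PDIA5 and PPIB in promoter cells (0%, 8% and 16.0% called). Of 24 degradation factors 0, 3 and 2 rose (0%, 12.5% and 8.33%). Of 43 translocation and traffic genes 0, 4 and 4 rose (0%, 9.30% and 9.30%), led by SSR1, a subunit of the translocon-associated complex, at 0.61 ± 0.11 in U1U2 and 0.71 ± 0.11 in promoter cells. For these 3 lists DESeq2 also called 0 in NT cells, where 1, 1 and 2 genes were higher and 2, 1 and 0 lower at an unadjusted p under 0.05. That threshold passed 16.9% of all genes in NT cells, in either direction. Of 18 other transducers of ER stress 0 (DESeq2 0, and 0 higher at an unadjusted p under 0.05), 2 and 1 rose, with CREB3L2, a membrane-bound factor related to ATF6, at 0.27 ± 0.07 and 0.34 ± 0.07 in U1U2 and promoter cells, and BCL2L11, a death factor, fell in NT and U1U2 cells. Calls in either direction are 5.56%, 16.7% and 5.56% of that list in NT, U1U2 and promoter cells. Of 18 genes around the eIF2 kinases, EIF2B3 rose in NT and OMA1 in promoter cells (5.56%, 0% and 5.56% called in NT, U1U2 and promoter cells).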

How the data were processed

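Messenger RNA libraries of 18 samples in 6 groups were analysed. The authors deposited raw read counts, as whole numbers, along with log2 CPM values. STAR 2.6.0c, edgeR 4.2.2, R 4.4.1 and hg38 are named per the submitters' processing notes, and the sources used here do not give the counter, its strand setting or the annotation. Deposited log2 CPM values of 10402 genes matched those recomputed from the counts to within 5.0e-09 and entered no test. Tests on the counts used edgeR 4.0.16 (R 4.3.3): filterByExpr with a minimum count of 10 left 15558 of 78724 genes, TMM factors scaled the libraries, and 1 quasi-likelihood fit of all 18 libraries with 1 term per group gave 12 contrasts. P-values were adjusted with the Benjamini-Hochberg method over all tested genes, with a threshold of 0.05. CPM values use TMM-scaled library sizes. Without a symbol in the deposited table were 45.7% of genes. Members and lists were chosen with earlier results of these data known. Values in every library are given for members called with a log2 fold change of at least 0.58 and for the transducers and HSPA5; from each wider list up to 4 called genes per direction may be named. Gene positions are from GENCODE 29. Alternatives were RLE size factors, no filter, a replicate block, only the groups compared, DESeq2 1.42.0, each library left out and, added after the data were seen, libraries with TMM factors of 0.95 or more and GC and length offsets. Scripts were tested on simulated data.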

Additional observations from a re-analysis of the deposited data

Results flagged for a closer look

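The MPA response of 2 genes of the wider pathway lists differed between lines by the edgeR test of the difference. TXNIP went from 325 ± 13.9 to 466 ± 75.0 CPM (SD, n = 3) in NT and from 181 ± 37.7 to 502 ± 15.0 in promoter cells. The difference of promoter minus NT was 0.95 ± 0.20 on the log2 scale (edgeR adjusted p = 0.0211). In U1U2 cells TXNIP went from 262 ± 27.9 to 515 ± 86.8 CPM. Its means in the 3 lines were further apart in vehicle than under MPA. SSR1 went from 490 to 512 CPM in NT and from 468 to 765 in promoter cells, a difference of 0.65 ± 0.15 (edgeR adjusted p = 0.0390). None of the 38 stress genes had such a difference called. Groups of 3 libraries are too small for the check of single outlying samples.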

How the results depend on the processing

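The direction of each named member's call was kept under every alternative, and the side of the threshold was not. With no filter on low counts, calls went to 7 of 38 for MPA in NT cells (6.43% of the 15558 genes that pass the filter were called in the same fit), 2 for U1U2 against NT (4.94%) and 3 for promoter against NT (8.94%) in vehicle, and 1 for the response of promoter minus NT (XBP1; 4.80%). With only the groups compared in the fit they were 0 in NT (3.43% of all genes) and 5 in promoter cells (19.01%), and with TMM factors of 0.95 or more likewise 0 (4.17%) and 5 (12.5%). GC and length offsets gave 4, 7 and 10 for MPA in NT, U1U2 and promoter cells (8.82%, 17.7% and 21.4%), and 2 each for promoter against NT in vehicle (11.05%) and under MPA (6.69%). DESeq2 gave 3 for MPA in NT cells (6.81%) and 1 for promoter against NT under MPA (4.76%), and RLE size factors 1 there (4.04%). Leaving out 1 library at a time gave 0 to 5 calls in NT (3.87% to 6.03% of all genes), 2 to 4 in U1U2 (7.92% to 12.1%) and 2 to 3 in promoter cells (9.78% to 14.8%) and 0 to 1 for promoter against NT in vehicle (2.91% to 8.35%); the 5 came without NT vehicle replicate 1 (6.03%). Deviations of vehicle and MPA libraries with the same number in a line correlated at -0.35 to 0.20. Those of libraries of different groups with different numbers correlated at -0.51 to 0.48. Deviations from a mean of 3 libraries depend on each other, so these values cannot exclude a pairing. With the replicate block the counts were 1, 3 and 2 for MPA in NT, U1U2 and promoter cells (4.88%, 9.69% and 12.8%) and 0 elsewhere. The cause of these shifts was not tested. SDF2L1, with 158 counts in all, is limited by depth.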

Other observations

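Stress genes of other compartments were measured alongside. Of 21 cytosolic heat shock genes, MPA raised 2 and lowered 1 in NT, raised 3 and lowered 2 in U1U2, and raised 2 and lowered 2 in promoter cells. These are 14.3%, 23.8% and 19.05% of the list, beside 5.87%, 11.6% and 15.0% of all tested genes. DNAJB4, an Hsp40 cochaperone, went from 98.1 to 225 CPM in NT, 87.1 to 286 in U1U2 and 99.2 to 291 in promoter cells (log2 fold change 1.20 ± 0.13, 1.72 ± 0.13 and 1.55 ± 0.13, all called by edgeR). BAG3, a cochaperone of selective autophagy, rose by 0.31 ± 0.08, 0.43 ± 0.08 and 0.35 ± 0.08, and HSPA4L, an Hsp110-type chaperone, fell by 0.58, 0.55 and 0.68. Of 11 mitochondrial chaperones and proteases edgeR called 0 in each line, and DESeq2 called 0, 0 and 1. At an unadjusted p under 0.05, 1 was higher and 0 lower in each line. In either direction, 16.9%, 23.2% and 26.7% of all genes passed that threshold in NT, U1U2 and promoter cells.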
